A study of Mus musculus with 4 samples.

Results

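Counts in the cortex of 12-month-old APPswe/PS1ΔE9 and wild-type (WT) mice were examined for 9 genes of lipoprotein particles and glial lipid handling, Apoe, Clu, Apod, Lpl, Ch25h, Abca1, Abcg1, Soat1 and Lpcat2, out of 18386 genes and features counted. The genes were given by name, with earlier results of these data known. The deposited symbols were spelt differently, so that 0 members matched exactly and 8 matched in any case, and the deposited transcripts of Lpl carried another symbol or none. All 9 were therefore found by transcript identifier in the GENCODE mouse annotation (release M21, GRCm38), through 24 transcripts whose counts were summed per gene.

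Whole transcriptome sequencing of ribosomal RNA-depleted, strand-specific libraries covered 2 male APPswe/PS1ΔE9 mice (APP) and 2 age-matched male WT mice. The labels give C57BL/6 as the background of all mice, and the WT mice were of the substrain C57BL/6J. The APP mice carry a transgene for amyloid precursor protein with the Swedish mutation (APPswe) and one for presenilin 1 with a deletion (PS1ΔE9), both driven by the mouse prion protein promoter and both absent from the WT mice. The libraries are called APP-3, APP-4, WT-1 and WT-2 here, after the deposited columns. Library totals ran from 28525117 to 43881196 counts. App itself stood at 2679 and 2388 CPM (counts per 1000000 counts of the library) in APP and at 857 and 905 CPM in WT, a log2 fold change of 1.52 ± 0.070 (SE, adjusted p = 2.11e-05, edgeR's quasi-likelihood test), higher in the libraries labelled as transgenic. The replicate APP libraries differed from each other more than the WT pair, with chi-square per degree of freedom of 30.3 against 5.40. Each value was taken over the features above a minimum count in that pair.

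Apolipoproteins are the protein part of lipoprotein particles, which in the brain are made mainly by glia and carry cholesterol and phospholipids from cell to cell. The transporters Abca1 and Abcg1 load lipid onto these particles, and both are classical target genes of the liver X receptors (LXR), nuclear receptors that respond to oxysterols. Sterol that is not exported can be esterified and stored, and APOE is the best known risk gene for late-onset Alzheimer's disease.

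The promoters of Abca1 and Apoe are shown because Abca1 had the largest fold change of the list, Apoe was its most abundant gene, and only the former held an LXR-type repeat. Both are RefSeq windows on GRCm38.p6, from 250 bases before to 50 bases after the transcription start, and both genes lie on the minus strand. The Abca1 window is chr4:53159846-53160145, and the capitals mark the match, on the other strand, to GGTNA repeated with 5 bases between.
Abca1: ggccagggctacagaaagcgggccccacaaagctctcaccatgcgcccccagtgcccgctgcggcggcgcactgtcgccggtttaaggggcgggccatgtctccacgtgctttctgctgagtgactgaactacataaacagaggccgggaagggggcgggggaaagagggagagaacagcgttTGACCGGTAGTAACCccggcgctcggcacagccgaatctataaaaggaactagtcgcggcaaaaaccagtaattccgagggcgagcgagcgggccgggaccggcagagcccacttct
The Apoe window at the start of the annotated gene is chr7:19699139-19699438 and holds no match to any of the motifs searched.
Apoe: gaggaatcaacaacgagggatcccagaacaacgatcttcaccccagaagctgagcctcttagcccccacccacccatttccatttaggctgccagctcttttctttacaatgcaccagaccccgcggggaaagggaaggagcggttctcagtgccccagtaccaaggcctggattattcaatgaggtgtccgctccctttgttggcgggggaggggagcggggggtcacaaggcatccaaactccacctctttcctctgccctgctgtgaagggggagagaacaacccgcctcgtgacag
The match lies 67 to 53 bases before the Abca1 start. This looser spelling of the LXR repeat was chosen after the values had been seen, and 236 of 32851 mouse promoters (0.718%) hold it. With GGTCA in both places it was in 0.0761% of promoters and in none of the 8 windows held for 6 of the members. Clu, Lpl and Abcg1 had no window, so their promoters were not searched for any motif. The other motifs, searched on both strands, were GAGGAAGT of PU.1 (3.2% of promoters), TCACNCCAC of the sterol regulatory element (1.24%) and TCACGTGA of the lysosomal CLEAR network (0.974%), and no member window held them. A match is a description of letters in this window and not of a bound site.

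Of the 9 genes, only Clu passed the test across all features, at an adjusted p under 0.05, where 1.14% of all features passed and 1.02% passed with a higher level in APP. None passed both this test and the 1.5-fold cut-off, which 0.881% of all features did. A further 5 genes had an unadjusted p under 0.05, which 12.1% of features had, and all 6 were higher in APP, as were 7.36% of features. The values of both APP libraries lay above those of both WT libraries for 6 genes, Apoe, Clu, Apod, Abca1, Soat1 and Lpcat2, against 21.3% of all features. Both APP values lay below both WT values for Abcg1 alone, against 21.4% of features, and the groups overlapped for Lpl and Ch25h. The median log2 fold change was 0.36 over the 9 genes and -0.0011 over all features. With 2 libraries a group, an exact permutation test of a single value cannot go below p = 0.333, so the p-values given for genes come from edgeR's quasi-likelihood test, which shares the estimate of spread across all features.

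**Figure D1:**
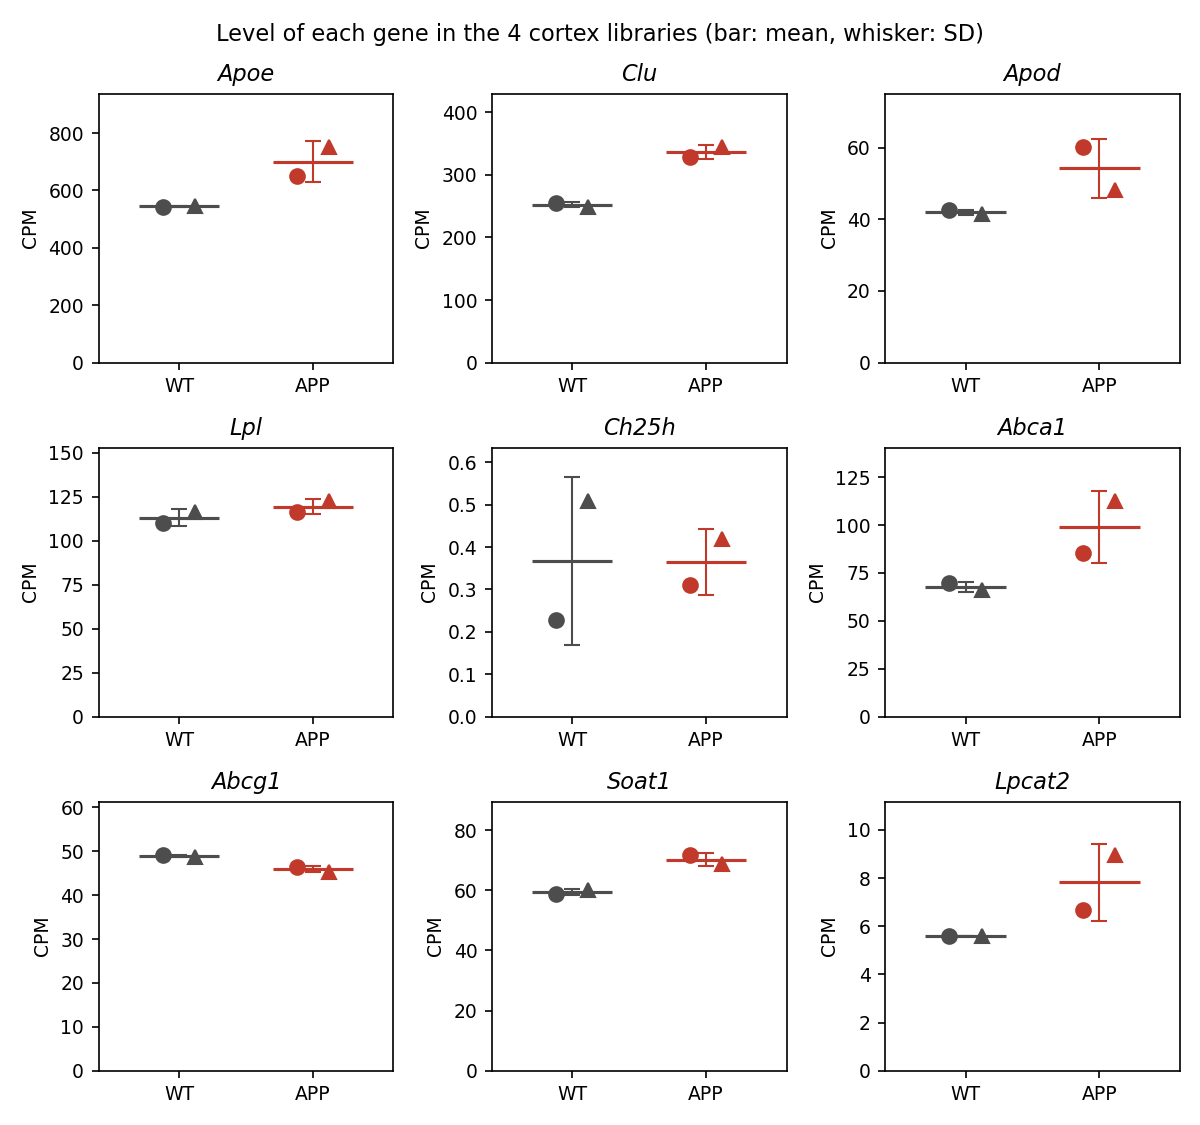
CPM (vertical axis, from 0) of each of the 9 genes in the WT libraries (grey) and the APP libraries (red), with circles for WT-1 and APP-3, triangles for WT-2 and APP-4, bars for the mean and whiskers for the SD of 2 libraries. The groups are separate for all genes but Lpl and Ch25h, and Abcg1 is the only one with the APP values below the WT values.

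Of the 3 lipoprotein particle proteins, Clu passed the test, and Apoe and Apod had values above WT without passing. Apoe, the main apolipoprotein of brain lipoproteins (chromosome 7, 19696109 to 19699188, minus strand), stood at 649.5 and 750.2 CPM in APP-3 and APP-4 and at 542.3 and 546.6 CPM in WT-1 and WT-2. The groups did not overlap, and the gap between the APP libraries was wider than that between the WT libraries. Apoe had a log2 fold change of 0.36 ± 0.078 (SE, 95% interval 0.18 to 0.54), with an adjusted p of 0.0789 that did not pass edgeR's quasi-likelihood test. Clu, or clusterin, a secreted chaperone that also rides on lipoproteins (chromosome 14, 65968483 to 65981547, plus strand), stood at 328.0 and 344.0 CPM in APP and at 255.5 and 249.4 CPM in WT. All APP values lay clear of the WT values, and each pair was tight. Clu rose 1.33-fold, a log2 fold change of 0.41 ± 0.064 (SE, 95% interval 0.27 to 0.56, adjusted p = 0.0236, edgeR's quasi-likelihood test). This call was lost without WT-1 and without WT-2, and kept without APP-3 and without APP-4, in fits that leave a lone library in a group. The log2 fold change of Clu lay between 0.38 and 0.45 whichever library was left out. Over the alternatives that kept all libraries its adjusted p ran from 8.30e-06 to 0.0271.

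Apod, a lipocalin made by glia that carries small hydrophobic molecules (chromosome 16, 31296192 to 31314808, minus strand), stood at 60.1 and 48.3 CPM in APP and at 42.5 and 41.5 CPM in WT. APP-3 was the high library here, whereas APP-4 was the high library for Apoe and Clu. The log2 fold change was 0.37 ± 0.10 (SE), with an adjusted p of 0.173, and it lay between 0.20 without APP-3 and 0.52 without APP-4. The ratio of Apoe to Clu in CPM was 1.98 and 2.18 in APP and 2.12 and 2.19 in WT, and these ranges overlapped.

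Lpl and Ch25h were the genes without a separation. Lpl, lipoprotein lipase, which hydrolyses the triglycerides of lipoproteins (chromosome 8, 68880491 to 68907448, plus strand), stood at 116.3 and 122.5 CPM in APP and at 110.0 and 116.5 CPM in WT. The lower APP library fell below the higher WT library. The log2 fold change was 0.076 ± 0.066 (SE, adjusted p = 0.726), and its 95% interval of -0.075 to 0.23 leaves out a 1.5-fold change in either direction. Ch25h, the intronless cholesterol 25-hydroxylase that makes an oxysterol ligand of LXR (chromosome 19, 34473778 to 34475164, minus strand), held 9 and 13 counts in the APP libraries against 10 and 18 in the WT libraries. At this depth a difference was not detectable, since the 95% interval of the fold ran from 0.409 to 2.52. The opposite-strand transcript Gm26902 overlaps its start and held 14 to 27 counts, and whether the counting used strand is not given in the sources used here.

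The sterol exporters had values on opposite sides, and neither passed the test as a gene. Abca1, the membrane transporter that hands cholesterol and phospholipid to lipid-poor apolipoproteins (chromosome 4, 53030787 to 53159895, minus strand), stood at 85.6 and 112.4 CPM in APP and at 69.7 and 66.0 CPM in WT. Both APP libraries were above both WT libraries, and APP-4 was well above APP-3. Its log2 fold change of 0.55 ± 0.12 (SE, 95% interval 0.28 to 0.81) was the largest of the 9, with an adjusted p of 0.0733 that did not pass edgeR's quasi-likelihood test. Abca1 did pass by edgeR's likelihood ratio test, edgeR's exact test, DESeq2 and summing by deposited symbol, and over all alternatives with 4 libraries its adjusted p ran from 0.000498 to 0.0762. The log2 fold change was 0.34 without APP-4 and 0.73 without APP-3.

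Abcg1, the related transporter that passes sterol to already lipidated particles (chromosome 17, 31057675 to 31117988, plus strand), stood at 46.4 and 45.4 CPM in APP and at 49.1 and 48.7 CPM in WT. The APP values were the lower ones, by a small margin, and the test was not passed (log2 fold change -0.09 ± 0.066 SE, adjusted p = 0.647, edgeR's quasi-likelihood test). The 95% interval was -0.24 to 0.059. The ratio of Abca1 to Abcg1 in CPM was 1.85 and 2.48 in APP and 1.42 and 1.35 in WT, with every APP value above every WT value, which gives the smallest two-sided exact permutation p that 2 against 2 libraries allow, 0.333.

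Storage and remodelling genes were higher in APP without passing. Soat1, which esterifies cholesterol for storage in droplets (chromosome 1, 156424525 to 156474331, minus strand), stood at 71.6 and 68.6 CPM in APP and at 58.8 and 60.1 CPM in WT. The groups were separate and both pairs were tight. Soat1 had a log2 fold change of 0.24 ± 0.066 (SE, 95% interval 0.087 to 0.39, adjusted p = 0.176). Lpcat2, an acyltransferase of phospholipid remodelling that also makes platelet activating factor (chromosome 8, 92855339 to 92919279, plus strand), stood at 6.69 and 8.94 CPM in APP and at 5.60 and 5.59 CPM in WT. WT-1 and WT-2 nearly coincided and APP-4 was the highest. The log2 fold change was 0.48 ± 0.17 (SE), with an adjusted p of 0.275, and it lay between 0.26 without APP-4 and 0.68 without APP-3. The gene Capns2 lies inside Lpcat2 on the same strand and had 4 to 20 counts, against 194 to 277 for Lpcat2.

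**Figure D2:**
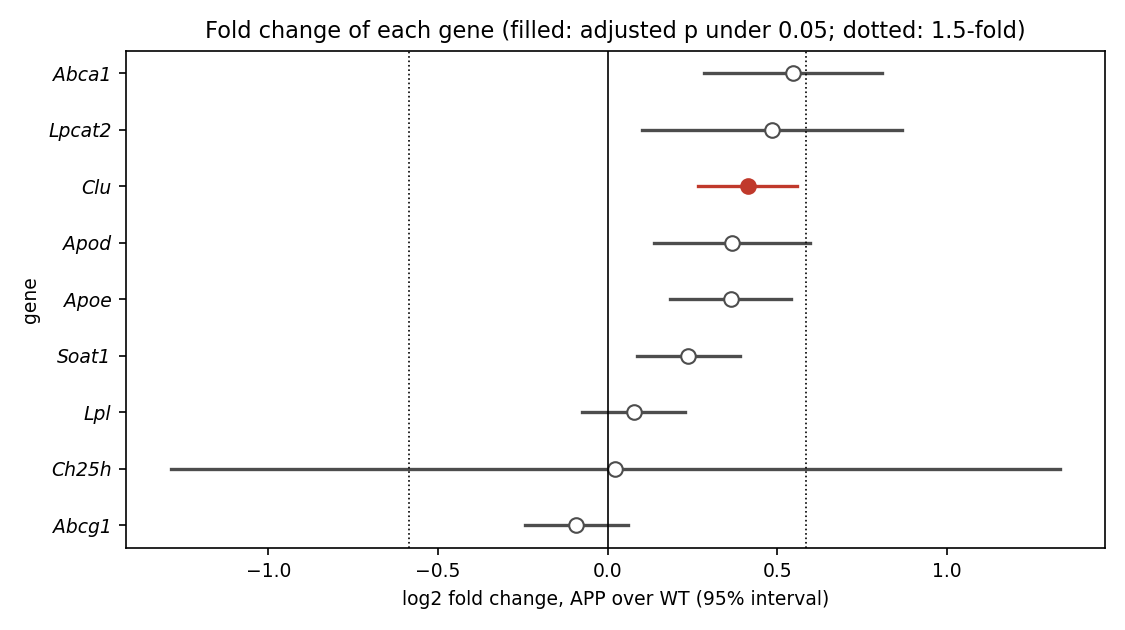
Log2 fold change of APP over WT (horizontal axis) for each of the 9 genes, with 95% intervals from edgeR's quasi-likelihood fit, a filled point for an adjusted p under 0.05 and dotted lines at a 1.5-fold change. Clu is the only filled point, the intervals of Lpl, Ch25h and Abcg1 include 0, and that of Ch25h is the widest.

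Levels can be compared between genes only per length, and for this the counts were divided by transcript length and scaled to the same sum in each library (TPM). In WT, Apoe was the most abundant at 792 ± 7.72 TPM (SD, n = 2), followed by Clu at 214 ± 7.47 TPM. Apod at 61.8 ± 2.78 TPM and Lpl at 61.4 ± 1.57 TPM did not differ beyond their spread. Below them in WT came Soat1 at 22.3 ± 0.622 TPM, Abcg1 at 12.8 ± 0.289 TPM, Abca1 at 10.1 ± 0.566 TPM, Lpcat2 at 3.04 ± 0.0573 TPM and Ch25h at 0.403 ± 0.211 TPM. The WT level of Apoe was at percentile 99.8 of all genes with a known length and that of Ch25h at percentile 10.7. In APP the means of the transporters stood in the other order, with Abca1 at 14.1 ± 1.79 TPM and Abcg1 at 11.6 ± 0.924 TPM (SD, n = 2).

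**Figure D3:**
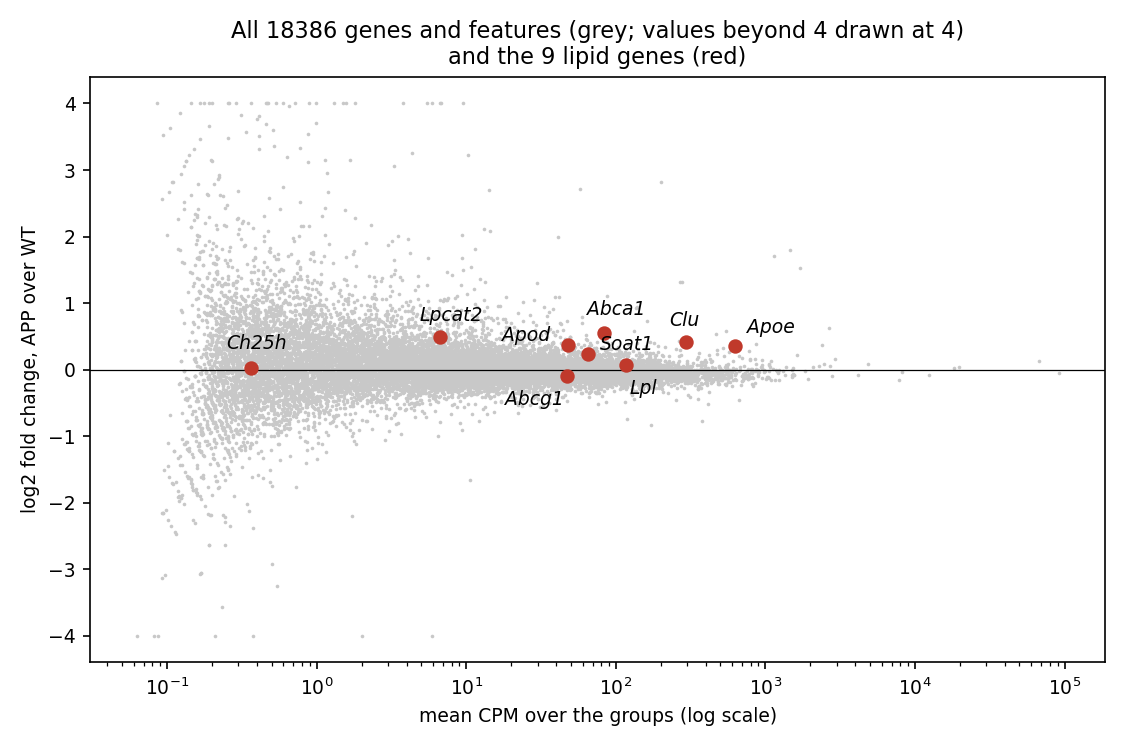
Mean CPM over the groups (horizontal axis, log scale) against the log2 fold change of APP over WT for all 18386 genes and features (grey) and the 9 lipid genes (red). Apoe and Clu lie far to the right, Ch25h lies among the low counts where the grey points spread widely, and Abca1 is the highest red point.

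Of the 24 transcripts of these genes, 14 held at least 5% of the counts of their gene. How reads shared by several transcripts were assigned is not given in the sources used here, so the split within a gene is that of the deposited counts. In the test over all 37539 transcripts, of which 1.06% passed, 4 of the 24 passed and all were higher in APP. The APP values lay above the WT values for 11 of the 14, against 19.9% of all transcripts. Apoe-201, with 85.6% of the counts of Apoe, rose by 0.36 on the log2 scale (adjusted p = 0.0382), and Apoe-202, with 13.9%, rose by 0.40 (adjusted p = 0.0153). Clu-201, with 99.5% of the counts of Clu, rose by 0.42 (adjusted p = 0.0068), and Abca1-201, the only Abca1 transcript counted, rose by 0.55 (adjusted p = 0.0125). Apoe and Abca1, which did not pass as genes, had transcripts that passed in the fit over transcripts. For Abca1 the counts were the same in both fits, and the SE was 0.12 over genes and 0.10 over transcripts. Its transcript call is therefore no further evidence beside the gene. Without WT-1 or without WT-2 only 1 of these calls was left, that of Abca1-201. The call of Apoe-201 was also lost by edgeR's likelihood ratio and exact tests, with library totals and with at least 10 counts in every library, each of which left 3 calls. Most counts of Apod, 82.0%, were on Apod-201, which the annotation types as a retained intron. Soat1 was split between Soat1-207 with 53.6% and Soat1-201 with 44.0%, and neither passed.

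For Lpl the transcripts had unlike values, though neither passed the test. Its coding transcript Lpl-201, with 36.7% of the counts, stood at 46.1 and 49.7 CPM in APP and at 37.5 and 39.2 CPM in WT. Its other transcript Lpl-202, typed as a retained intron, stood at 71.1 and 72.0 CPM in APP and at 72.1 and 77.4 CPM in WT. The coding transcript was thus higher in both APP libraries, while the retained-intron transcript was marginally lower. The log2 fold change was 0.32 ± 0.082 (SE) for Lpl-201, with an adjusted p of 0.0912, and -0.06 ± 0.077 (SE) for Lpl-202, with an adjusted p of 0.895. Lpl-202 shares 345 bases with Lpl-201 and holds 2078 bases of its own, while 3770 bases are in Lpl-201 alone. The ratio of Lpl-201 to Lpl-202 was 0.648 and 0.691 in APP and 0.520 and 0.507 in WT (two-sided exact permutation p = 0.333, the smallest possible). In edgeR's test of transcript usage over 26648 transcripts, of which 0.0338% passed, Lpl-201 had an unadjusted p of 0.0219 that was lost on adjustment. Of the 20 transcripts tested of these genes it was the 1 with an unadjusted p under 0.05, against 2.55% of all transcripts tested, and 0 passed the adjusted test. Counting protein-coding transcripts only, the log2 fold change of Lpl was 0.32 (adjusted p = 0.108) in place of 0.076.

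**Figure D4:**
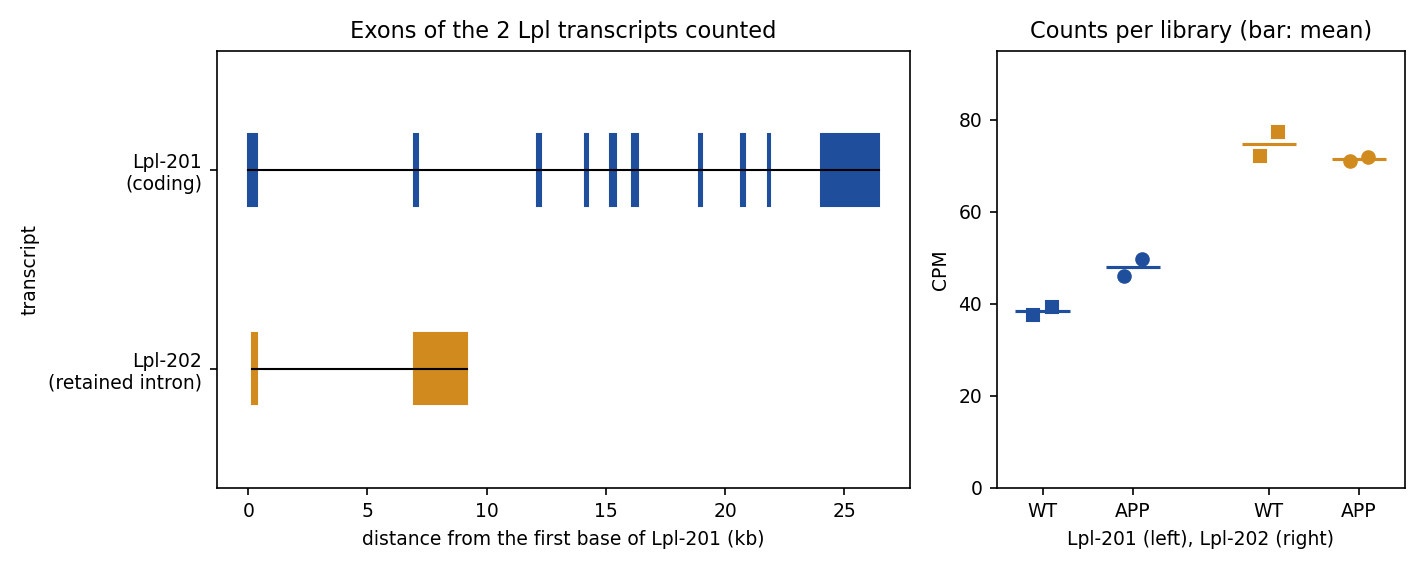
Left, exons of the Lpl transcripts counted, by distance from the first base of Lpl-201 in kilobases, and right, CPM of Lpl-201 (blue) and Lpl-202 (orange) in each WT (squares) and APP (circles) library with bars for the mean. Lpl-201 is higher in APP and Lpl-202 is not.

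Other genes of the same pathways were described from 6 lists that hold 125 genes, of which 108 were counted. Of these, 5 rose, 0 fell and 103 did not pass, so 4.63% passed where 1.14% of all features did. The median log2 fold change over the 108 genes was 0.055. The lists were compiled with earlier results of these data known. Stard4, a soluble carrier of cholesterol between membranes, stood at 43.8 and 43.7 CPM in APP and at 28.0 and 29.1 CPM in WT. It rose by 0.62 on the log2 scale (adjusted p = 0.00646, edgeR's quasi-likelihood test) with no overlap. Npc2, the lysosomal protein that hands cholesterol to the lysosomal membrane, stood at 38.4 and 46.1 CPM in APP and at 28.3 and 27.9 CPM in WT and rose by 0.59 (adjusted p = 0.0276). These were the genes that passed this test among 18 of intracellular sterol transport and oxysterols, and Gpr183, named after its values were seen, passed as well by edgeR's likelihood ratio and exact tests. In this list Osbpl1a, the most abundant, had a log2 fold change of -0.23 (adjusted p = 0.271). At an unadjusted p under 0.05 there were 10 of these 18 genes and 25 of the 108, against 12.1% of all features. Of the 18, 8 had both APP values above WT and 4 had both below, against 21.3% and 21.4% of all features.

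Of 16 lipoprotein receptors and their partners, 15 did not pass, and Sorl1, the most abundant, had a log2 fold change of -0.12 (adjusted p = 0.641). Of 20 genes of LXR and sterol efflux, Abca9 alone passed edgeR's quasi-likelihood test and rose from 18.02 and 15.8 CPM in WT to 24.1 and 25.5 CPM in APP (0.55, adjusted p = 0.0325). In the same list Scd2, a fatty acid desaturase, stood at 0.28 on the log2 scale (adjusted p = 0.0779) but passed by DESeq2, while Srebf1, named after its values were seen, passed by edgeR's likelihood ratio and exact tests. Of 26 genes of lipases, fatty acid carriers and lipid droplets, only Fabp7, the brain fatty acid binding protein of glia, rose, from 11.8 and 15.1 CPM in WT to 21.1 and 24.5 CPM in APP (0.77, adjusted p = 0.0347), and Acsl3, the most abundant, had one of 0.14 (adjusted p = 0.494).

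By edgeR's quasi-likelihood test, none of the 20 lysophospholipid acyltransferases and platelet activating factor genes passed, with Pafah1b1 at -0.04 (adjusted p = 0.886) and Pla2g15 at 0.29 (adjusted p = 0.302) on the log2 scale. None of the 8 other apolipoproteins counted passed either, out of 17 listed. At an unadjusted p under 0.05 there were 2 in the former list and 1 in the latter, against 12.1% of all features. By DESeq2 and by edgeR's likelihood ratio and exact tests 0 passed in either list. Apoh had a log2 fold change of 1.72 on totals of 7 and 11 in the APP libraries against 4 and 3 in the WT libraries (adjusted p = 0.385), and the most abundant, Apoo, had one of -0.10 (adjusted p = 0.874). Summed over this list, the libraries held 11.8 to 16.1 CPM in APP and 13.0 to 14.1 CPM in WT, far below Apoe, Clu or Apod.

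The members are made by glia to differing degrees, and markers of glia differed between the groups. In whole cortex, more cells of a type and more RNA per cell cannot be told apart. Of all features, 1.02% passed with a higher level in APP and 0.12% with a lower one. Of 18 microglial markers, 12 rose and 0 fell, with a median log2 fold change of 0.88, and their summed level was 638 to 766 CPM in APP against 370 to 377 CPM in WT. Among them Tyrobp, the signalling adaptor of Trem2, rose by 2.08 on the log2 scale (adjusted p = 5.23e-05). Of 14 oligodendrocyte markers, 5 rose, with a median of 0.51 and a summed level of 1976 to 2276 CPM against 1434 to 1594 CPM. Trf, the transferrin gene, rose by 0.94 (adjusted p = 0.00252). Of 15 astrocyte markers, 2 rose, with a median of 0.13 and a summed level of 6773 to 7164 CPM against 5834 to 6264 CPM. These were Aqp4 and Gfap, the latter by 2.82 (adjusted p = 8.08e-06), while the glutamate transporter Slc1a2, the most abundant, had a log2 fold change of 0.16 (adjusted p = 0.403).

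Between the APP libraries, Apoe, Clu, Lpl, Ch25h, Abca1 and Lpcat2 were higher in APP-4, as were the microglial, astrocyte, mural and choroid plexus sums. Apod, Abcg1 and Soat1 were higher in APP-3, as were the sums of oligodendrocyte, neuronal (5298 against 4537 CPM), endothelial and meningeal markers. Some of these gaps were small. APP-3 and APP-4 held 9 and 13 counts of Ch25h, 46.4 and 45.4 CPM of Abcg1, and endothelial sums of 106.3 and 103.8 CPM. No gap between single libraries was tested. The part of these cell types in the values of the 9 genes was not tested. By edgeR's quasi-likelihood test, none of the 13 endothelial, 10 mural, 11 meningeal fibroblast and 12 neuronal markers passed, with medians of -0.07, 0.08, -0.12 and -0.09. Their most abundant genes were Slco1a4 at 0.046 (adjusted p = 0.894), Rgs5 at 0.13 (adjusted p = 0.537), Dcn at 0.12 (adjusted p = 0.817) and Snap25 at -0.13 (adjusted p = 0.513), and those of smallest p were Emcn at 0.32 (adjusted p = 0.637), Notch3 at 0.91 (adjusted p = 0.0652), Lum at -0.78 (adjusted p = 0.297) and Slc17a7 at -0.29 (adjusted p = 0.0818). At an unadjusted p under 0.05 there were 0, 2, 1 and 1 markers in these lists, against 12.1% of all features. By DESeq2 Notch3 and Slc17a7 passed, the former by edgeR's likelihood ratio and exact tests as well. Of the 10 choroid plexus markers 6 were counted and 0 passed by any of these tests, 1 having an unadjusted p under 0.05, with a summed level of 13.3 to 14.0 CPM in APP and 10.2 to 11.9 CPM in WT, a median of -0.10, and Prlr at 0.52 (adjusted p = 0.192).

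**Figure D5:**
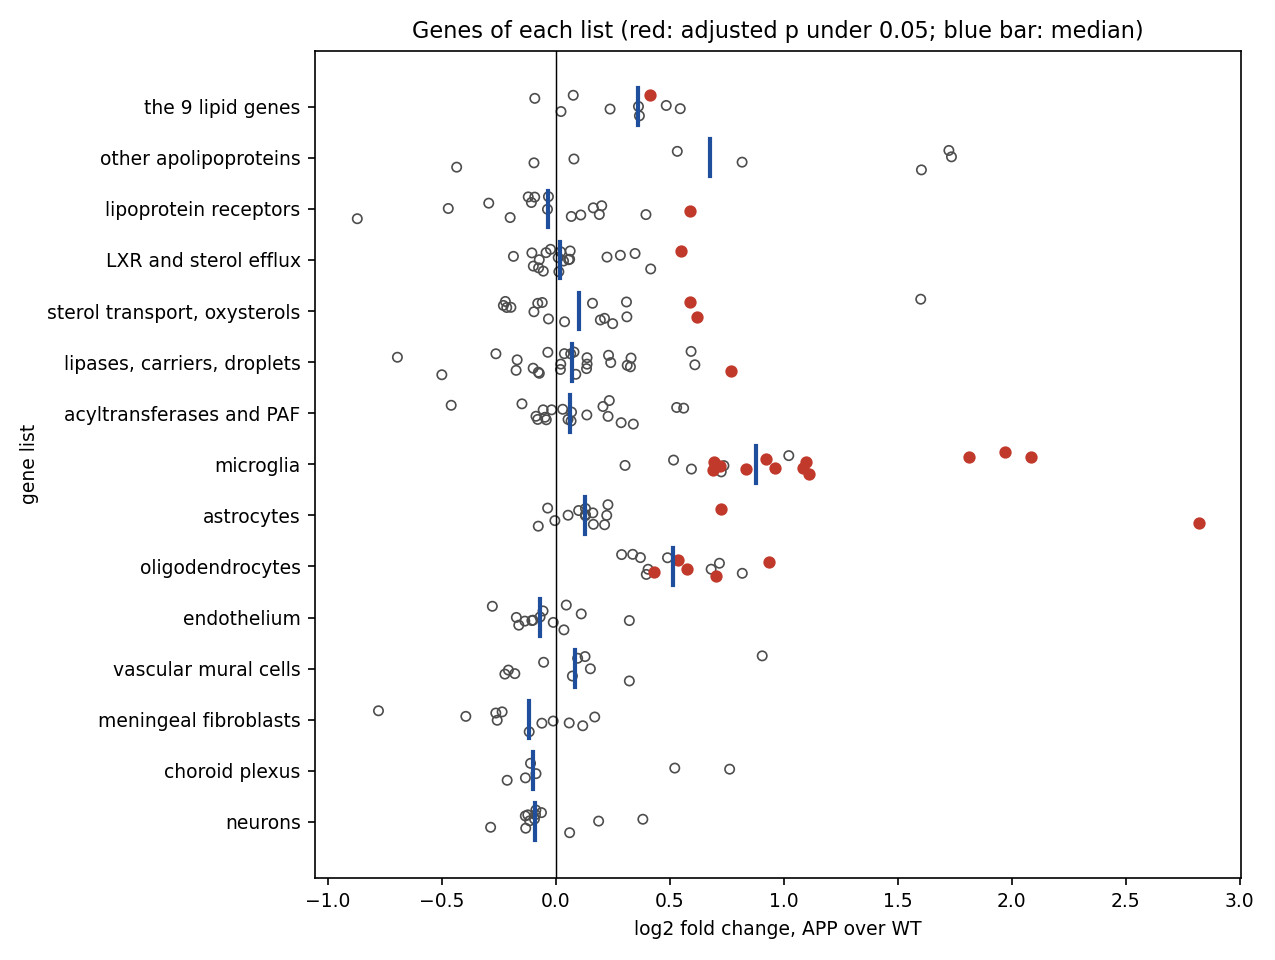
Log2 fold change of APP over WT (horizontal axis) of each counted gene in each list (rows), with red points for an adjusted p under 0.05, open points for the rest and blue bars for the median. The microglial and oligodendrocyte markers lie to the right of 0 throughout, and the 9 lipid genes have 1 red point.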

How the data were processed

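Cortex RNA of 2 APP and 2 WT mice was sequenced as 100 bp strand-specific paired reads. The authors discarded pairs that mapped to ribosomal RNA in SILVA, aligned the rest to the Ensembl mouse RNA database with FANSe2, allowing 7 mismatches, kept transcripts with at least 10 mapped reads, and deposited raw read counts per transcript. The database release, the aligner version and the handling of reads shared by transcripts are not given in the sources used here. The submitters' processing notes name CASAVA 1.8, edgeR and hg19, a human build. Another 4 per-library value columns and 4 columns of the authors' own comparison were not used. Each WT column could be assigned to its mouse, while the numbers of the APP columns identified the group alone.

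Gene totals were formed from 37539 transcripts through their GENCODE M21 identifiers, which matched 98.2% of them, and unmatched transcripts stayed as features. No feature fell under the minimum of 10 counts. Analyses used R 4.3.3, edgeR 4.0.16, limma 3.58.1 and DESeq2 1.42.0, with Python 3.11.15, pandas 2.3.3, numpy 2.4.6, scipy 1.17.1 and matplotlib 3.10.9. Groups were compared by edgeR's quasi-likelihood test after TMM scaling, with Benjamini-Hochberg adjustment over 18386 features (adjusted p under 0.05; a second rule added a 1.5-fold cut-off). The fit had a common dispersion of 0.00778 and 6.54 prior degrees of freedom. CPM used TMM library sizes. The test was checked on simulated counts, where 18 of 18173 unchanged genes were called. Of 50 genes changed by each fold, it called 12% at 1.25-fold, 78% at 1.5-fold, 98% at 2-fold and 100% at 4-fold. The unchanged genes thus made up a larger share of all calls there than the 0.05 aimed at. Apoe, Clu, Apod, Abca1 and Lpcat2 had folds between 1.25 and 1.5, and no fold between these was simulated. Each gene was drawn with the same spread in both groups, although the real APP libraries differed more than the WT pair. Genes of low counts, such as Ch25h, were not among those changed. Whether a gene that did not pass was a missed change was not tested. Alternatives were edgeR's likelihood ratio and exact tests, DESeq2, other scalings and filters, other summing, and leaving out each library. Genes named were all 9 members, their transcripts with at least 5% of the counts, from each pathway list those that passed, the most abundant and, where none passed, that of smallest p, and from each marker list the most abundant and that of smallest p. Some genes that the rule names are not reported here. Aqp4 was named after its values were seen. The members and all lists were chosen with earlier results of these data known. The test of transcript usage, the ratios between genes and transcripts, and 2 patterns with 5 bases in the LXR repeat, in place of a misspelt one with fewer, were added once the values were known.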

Additional observations from a re-analysis of the deposited data

How the results depend on the processing

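With all 4 libraries kept, 9 alternatives left the median log2 fold change of the genes between 0.36 and 0.37 and turned no direction of a gene they covered, and 0 genes passed with the 1.5-fold cut-off in any of them. The number of genes past the test was 1 in the main analysis. It was 3 by edgeR's likelihood ratio test (Abca1, Apod and Clu), 2 by its exact test (Abca1 and Clu), 3 by DESeq2 (Abca1, Apoe and Clu) and 2 when summed by deposited symbol (Abca1 and Clu), where Lpl could not be found and 8 genes were left. At least 10 counts in every library also left 8 genes, without Ch25h. Over all features, 209 passed in the main analysis, 599 by the likelihood ratio test, 557 by the exact test and 338 by DESeq2. With the 1.5-fold cut-off the first 3 of these gave 162, 391 and 354. Summing by deposited symbol gave 303 of 22919 features past the test. No filter gave the same fit as the main analysis. Leaving out 1 library gave 0 to 5 of the 9 genes past the test and 0 to 2 with the fold cut-off as well, 136 to 1707 features and 135 to 602 with the cut-off, 2 to 24 other lipid genes, 1 to 8 transcripts of the 9 genes, and a median log2 fold change of 0.22 to 0.37. The genes that passed were Abca1, Apoe, Clu and Lpcat2 without APP-3 and Abca1, Apod, Apoe, Clu and Soat1 without APP-4, and 0 passed without WT-1 or without WT-2. Such fits assume that the lone library varies like the other group. The sign turned for Ch25h, whose log2 fold change ran from -0.47 without WT-1 to 0.68 without WT-2 and was -0.21 without APP-4. The cause of these changes was not tested. No paired analysis was made, because the sources used here give no pairing of APP mice with WT mice. The depth limits Ch25h above all, and 2 libraries a group limit every test.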
